A study of Ambystoma mexicanum with 17 samples.

Results

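The genes MFAP3L, SLC16A14, CA5A, LIPG, DHRS12, WDR76, LONRF1 and AIFM3 are 8 of the 122775 gene IDs counted in regenerating axolotl forelimbs, taken by symbol. Most stood among the larger rises of posterior blastemas exposed to U0126, a blocker of the kinases that activate ERK. Their higher level in treated than in untreated posterior blastemas chose them, so that difference is described here and not tested. All 8 had enough reads to be fitted, out of 19398 genes that did. They do not form 1 pathway. SLC16A14, CA5A, LIPG and DHRS12 belong to families of carriers and enzymes of metabolism, AIFM3 to a family of flavoproteins named after the mitochondrial apoptosis-inducing factor, WDR76 and LONRF1 carry domains found in ubiquitin ligases, and MFAP3L encodes a membrane protein with immunoglobulin-like domains.

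Polyadenylated RNA was sequenced from forelimb tissue of axolotls of genotype d/d, salamanders that regrow their limbs. The 17 libraries came from posterior blastemas exposed to 25 uM U0126 (n = 5), posterior blastemas without it (n = 4), anterior blastemas without it (n = 5) and uninjured limb (n = 3). A nerve had been deviated to induce each blastema, a mound of progenitor cells under a wound epithelium, which was taken with that epithelium still on it at 10 days. Holtfreter's solution, a salt medium, and the solvent DMSO are also named in the labels, without saying which was given to blastemas that got no U0126. The library names of anterior and uninjured replicates 1 to 3 share a code by replicate number, which may mark an animal, though no label says what it means. No label states that libraries of a group came from different animals, so each p-value covers the spread among libraries, which may be technical. Levels are given as CPM (reads of a gene per 1000000 reads of its library, after scaling), and they follow the RNA of the whole tissue: fewer cells of a type and less RNA per cell cannot be told apart. CPM is not divided by transcript length, so levels are compared between libraries and not between genes.

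As background, ERK is the last kinase of a cascade that carries growth factor signals to the nucleus. Lactate, pyruvate and related acids cross membranes through SLC16 carriers. Carbonic anhydrases turn carbon dioxide into bicarbonate, and the mitochondrial form CA5A provides bicarbonate to carboxylating enzymes in mammals. LIPG, endothelial lipase, cleaves phospholipids of lipoproteins in mammals. DHRS12 belongs to the short-chain dehydrogenases and reductases. WDR76 is a WD-repeat protein that binds the CUL4-DDB1 ubiquitin ligase in human cells, and LONRF1 carries RING finger and LON domains.

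The libraries labelled uninjured replicate 1 and U0126 replicate 5 stood apart from their groups. Uninjured replicate 1 differed from the other uninjured libraries by a root mean square of 1.43 log2 CPM over the 19398 genes, against 0.989 from the U0126 libraries. Its nearest were U0126 replicates 1, 4 and 2, at 0.880, 0.902 and 0.921. U0126 replicate 5 differed from the other U0126 libraries by 1.16 and from the uninjured ones by 1.10, and its nearest were anterior replicate 3 and uninjured replicate 2, at 0.970 and 0.980. Anterior replicate 4 and U0126 replicate 4 were also nearer another group than their own, at 1.07 from the anterior and 0.912 from the posterior libraries, and at 1.07 from the U0126, 0.974 from the posterior and 1.003 from the anterior libraries. These gaps were wider than that of U0126 replicate 5. Uninjured replicate 1 and U0126 replicate 5 alone are left out together here, which leaves 2 uninjured and 4 U0126 libraries. The pair was taken from earlier results of these data, and single omissions cover the other libraries. Because U0126 replicate 5 was the lowest treated library for 7 of the 8 genes, leaving it out raises the treated mean of those 7. Libraries kept their labelled groups throughout. The labels of uninjured replicate 1 and U0126 replicate 5 may be wrong, which was not tested, and U0126 and uninjured means would then not stand for those groups. Libraries held 34181446 to 53856865 counts in genes.

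In U0126-treated posterior blastemas the 8 genes were 2.73 to 6.08 times as high as in posterior blastemas without U0126 by the fit. U0126 replicates 1 to 4 lay above every posterior library for all 8 genes, whereas U0126 replicate 5 was the lowest of its group for all but MFAP3L. The same genes were low in anterior blastemas. They separated into those at blastema level in uninjured replicates 2 and 3 (SLC16A14, CA5A, LIPG, DHRS12 and WDR76) and those at higher mean levels there than in anterior blastemas (MFAP3L, LONRF1 and AIFM3), a division made after the values were seen.

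**Figure D1:**
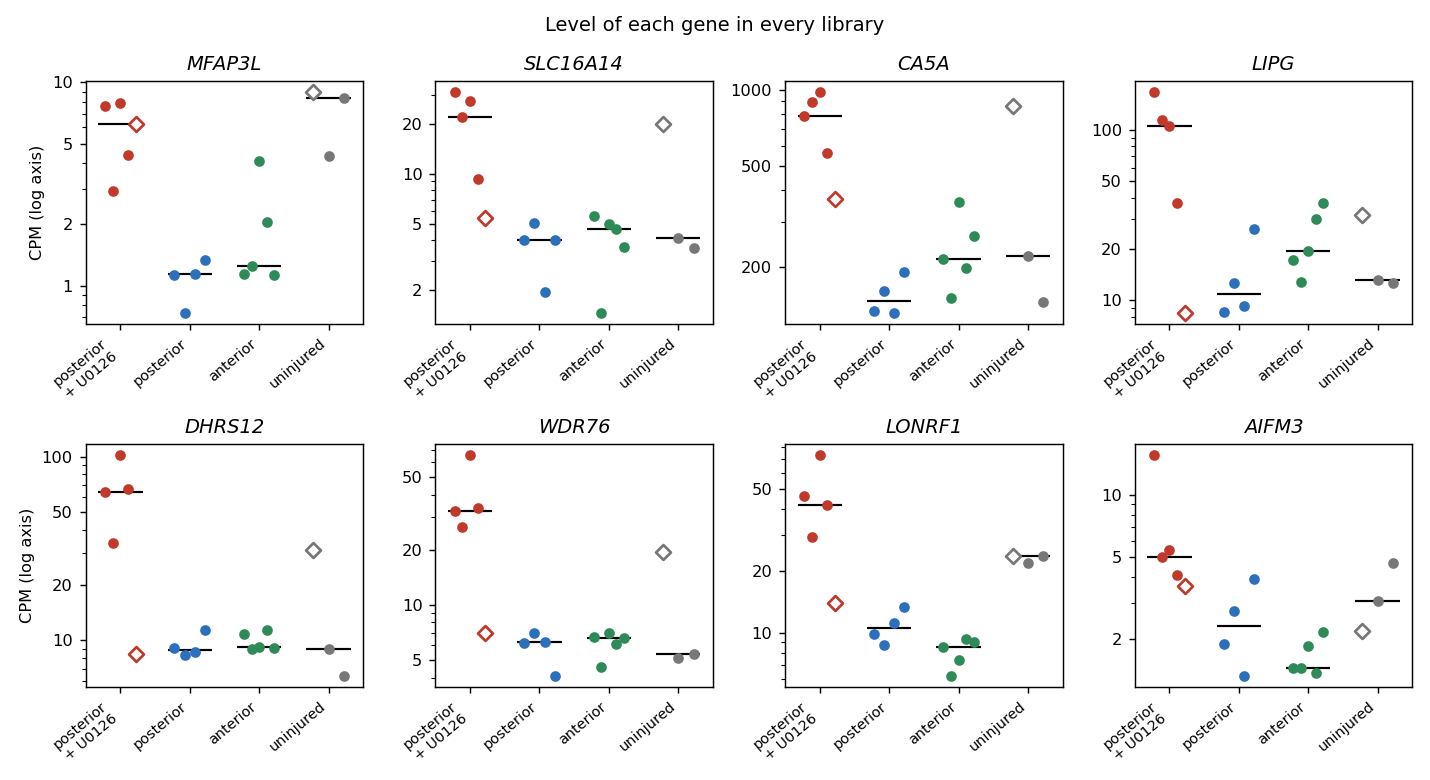
CPM on a log axis for each of the 8 genes (panels) in every library, by group. Points are libraries, black lines are group medians, and open diamonds are the libraries labelled U0126 replicate 5 and uninjured replicate 1. Filled U0126 points lie above all posterior points in every panel.

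SLC16A14, a member of the monocarboxylate carrier family, had 80 to 1332 reads per library. It was at 31.2, 22.1, 27.5, 9.36 and 5.43 CPM in U0126 replicates 1 to 5, against 3.96, 5.06, 1.94 and 3.97 CPM in posterior replicates 1 to 4. All treated libraries lay above all posterior ones, replicate 5 by a factor of only 1.07 over the highest posterior library. Anterior replicates 1 to 5 were at 5.57, 1.45, 5.01, 4.67 and 3.61 CPM and uninjured replicates 1 to 3 at 20.02, 4.13 and 3.55 CPM. Uninjured replicate 1 lay within the range of the treated libraries, anterior replicate 1 at the low end of it, and the other uninjured libraries among the blastemas. The log2 fold change of treated over untreated posterior blastemas was 2.36 ± 0.62 (SE), and 2.58 ± 0.44 (SE) without both libraries that stood apart.

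CA5A, the mitochondrial carbonic anhydrase, was read 5307 to 45056 times per library, so counting error is small beside the spread between libraries. It stood at 787, 895, 977, 559 and 369 CPM in the U0126 libraries, against 134, 159.8, 131 and 191 CPM in the posterior ones. The groups did not overlap, and the lowest treated library was 1.93 times the highest untreated one. In anterior blastemas it was at 214, 151, 359, 197 and 263 CPM and in uninjured limb at 862, 221 and 145 CPM. Anterior replicate 3 came close to U0126 replicate 5, and uninjured replicate 1 lay within U0126 replicates 1 to 4. Treated over untreated posterior blastemas gave a log2 fold change of 2.22 ± 0.46 (SE), and 2.38 ± 0.27 (SE) without both libraries that stood apart.

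LIPG had the widest range within the U0126 group, with levels of 166, 114, 105, 37.2 and 8.46 CPM, against 8.56, 12.6, 9.33 and 26.2 CPM in posterior blastemas. Replicate 5 was below all 4 posterior libraries, while replicate 4, the next lowest, was 1.42 times the highest of them. Anterior libraries had 17.3, 12.8, 19.5, 29.8 and 37.2 CPM, and uninjured libraries 31.9, 13.2 and 12.7 CPM. LIPG was thus spread among the anterior libraries too, 1 of which equalled U0126 replicate 4 to 3 digits. The log2 fold change over posterior blastemas was 2.603 ± 0.68 (SE) and became 2.88 ± 0.49 (SE) without both libraries that stood apart.

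DHRS12, the short-chain reductase, showed a wide gap between U0126 replicates 1 to 4 and the rest. Its levels were 64.0, 33.9, 102, 66.8 and 8.49 CPM with U0126, against 9.08, 8.33, 8.65 and 11.4 CPM in posterior blastemas. Replicate 5 lay among the posterior libraries, and the lowest of replicates 1 to 4 was 2.97 times the highest posterior library. Anterior blastemas had 10.9, 8.94, 9.19, 11.4 and 9.07 CPM and uninjured limb 31.1, 8.97 and 6.44 CPM. All untreated blastemas lay in the same narrow range, and of the untreated libraries uninjured replicate 1 alone was above it. The log2 fold change over posterior blastemas was 2.56 ± 0.57 (SE), and 2.83 ± 0.27 (SE) without both libraries that stood apart.

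AIFM3, the AIF family member, was read 56 to 666 times per library and had the smallest difference of the 8. It was at 15.6, 5.02, 5.38, 4.08 and 3.63 CPM with U0126, against 1.89, 2.75, 1.33 and 3.90 CPM in posterior blastemas. U0126 replicate 1 was far above the other treated libraries, and replicate 5 was below posterior replicate 4. Anterior blastemas were at 1.45, 1.45, 1.86, 1.38 and 2.16 CPM, against 2.19, 3.06 and 4.66 CPM in uninjured limb. Every anterior library was below every uninjured one, though only just for anterior replicate 5 and uninjured replicate 1. The log2 fold change with U0126 was 1.45 ± 0.44 (SE), which missed the threshold of 0.05 on the adjusted p that the other 7 genes passed. It became 1.59 ± 0.43 (SE) without both libraries that stood apart. With all libraries kept it also passed in DESeq2 and with the stricter filter on low counts, and it did not pass under the other 6 processing alternatives. Whether AIFM3 passed thus depended on the processing and on the libraries kept. Its log2 fold change ran from 1.39 to 1.59 over the 9 alternatives other than single omissions. With 1 library left out it ran from 0.87 to 1.76. Nothing is read from these calls, because this contrast chose the gene.

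WDR76, the DDB1-binding protein, followed DHRS12 closely. It was at 32.4, 26.6, 66.0, 33.9 and 6.97 CPM with U0126, against 6.17, 6.99, 6.27 and 4.10 CPM in posterior blastemas. Replicate 5 lay level with the highest posterior library, and the lowest of replicates 1 to 4 was 3.80 times that library. Levels of 6.66, 4.58, 7.03, 6.10 and 6.58 CPM were found in anterior blastemas and of 19.5, 5.09 and 5.35 CPM in uninjured limb. Uninjured replicate 1 was again the 1 untreated library outside the common range. Over posterior blastemas its log2 fold change was 2.50 ± 0.52 (SE), and 2.75 ± 0.27 (SE) without both libraries that stood apart.

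LONRF1, the RING and LON domain protein, was at 46.3, 29.2, 73.3, 41.6 and 14.0 CPM in U0126 libraries, against 9.90, 8.71, 11.2 and 13.4 CPM in posterior ones. No treated library overlapped the untreated ones, but replicate 5 exceeded the highest of them by a factor of only 1.04. Anterior blastemas had 8.52, 6.21, 7.39, 9.32 and 8.997 CPM and uninjured limb 23.5, 21.8 and 23.5 CPM. Here the uninjured libraries lay close together, uninjured replicate 1 included, and all were above all untreated blastemas. The log2 fold change with U0126 was 1.92 ± 0.33 (SE), and 2.13 ± 0.24 (SE) without both libraries that stood apart.

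MFAP3L, the membrane protein, was the least read of the 8, with 27 to 372 reads per library. It was at 7.66, 2.91, 7.92, 4.37 and 6.22 CPM in the U0126 libraries, against 1.13, 0.735, 1.15 and 1.33 CPM in posterior ones. The groups did not overlap, and replicate 5 stood in the middle of the treated libraries. In anterior blastemas it was at 1.14, 1.25, 4.10, 2.07 and 1.12 CPM and in uninjured limb at 8.96, 4.35 and 8.40 CPM. Uninjured and treated libraries covered nearly the same range, and anterior replicate 3 was well above the other anterior libraries. The log2 fold change over posterior blastemas was 2.42 ± 0.44 (SE), and 2.38 ± 0.47 (SE) without both libraries that stood apart.

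Of the 8 genes, 7 passed an adjusted p of 0.05 in edgeR's quasi-likelihood test of treated over untreated posterior blastemas, against 4.13% of all genes, and 4 had no overlap between the groups, against 6.25% of all genes. Nothing is read from these counts, because this contrast chose the genes. Among the 802 genes that passed as higher, LIPG ranked 18, DHRS12 19, WDR76 21, MFAP3L 25, SLC16A14 26, CA5A 31 and LONRF1 50 by log2 fold change. Without both libraries that stood apart all 8 passed and all 8 had no overlap, against 7.1% and 10.2% of all genes. Without posterior replicate 1, 2 of the 8 passed, and 63 of 19330 genes in all passed as higher. Without posterior replicate 2 it was 3 of the 8, and 138 of 19315. Calls over all genes thus fell in the same settings.

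Cell type markers differed between treated and untreated posterior blastemas as well. The epidermal markers took 0.370% to 0.512% of counts in U0126 libraries and 0.260% to 0.380% in posterior ones. Of 10 tested, 3 rose (the epithelial factors GRHL1 and GRHL2 and the cadherin CDH1) in edgeR; DESeq2 called 6 as higher, adding DSP, EVPL and PPL, and 6 were higher at an unadjusted p under 0.05. None was lower by any of these (0 of 10). These markers took 0.354% to 0.521% in anterior and 0.405% to 0.556% in uninjured libraries, so untreated posterior blastemas were the low group. Their median log2 fold change in U0126-treated posterior over anterior blastemas was 0.091, and edgeR called 0 of 10. Connective tissue markers took 0.524% to 1.498% with U0126 and 1.88% to 2.58% in posterior libraries without it. All 10 log2 fold changes between these groups were below 0. In edgeR 3 genes fell, PRRX2, PDGFRA and FSTL1, against 8 of 10 in DESeq2. Macrophage markers took 0.0243% to 0.0443% with U0126 and 0.0531% to 0.100% in posterior libraries without it. In edgeR 3 of 6 fell, the complement genes C1QA, C1QB and C1QC, against 4 in DESeq2. Of markers of skeletal muscle (6), endothelium (7), Schwann cells (6) and red blood cells (2), 0 passed in edgeR, 1 (ERBB3 of Schwann cells) had an unadjusted p under 0.05, and DESeq2 called 0. Their log2 fold changes were below 0 for 6, 5, 5 and 2 of them, with medians of −0.87 for muscle and −0.99 for Schwann cells. Muscle markers spread widely, from 0.0345% to 0.866% of counts with U0126 and from 0.102% to 0.919% in posterior libraries without it. Skeletal muscle markers took 0.0513% of counts in uninjured replicate 1, against 0.850% and 1.59% in uninjured replicates 2 and 3. In anterior libraries they took 9.5e-05% to 0.197%. All 6 were below 0 in anterior over uninjured, with a median log2 fold change of −4.10, and edgeR called 0. The epidermal, connective tissue and macrophage markers that the files hold were 10 of 12, 10 of 10 and 6 of 7. They had reads in every treated and untreated posterior library. The part of tissue make-up in the levels of the 8 genes was not tested.

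**Figure D2:**
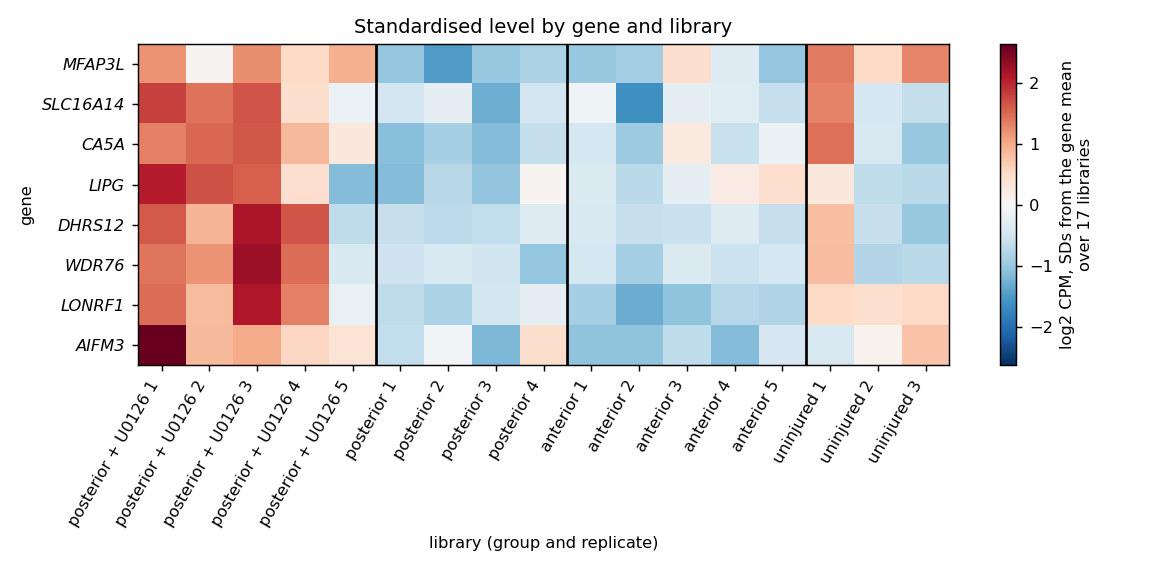
Level of each gene (rows) in each of the 17 libraries (columns), as log2 CPM in SDs from the mean of that gene over all libraries. Black lines divide the groups. U0126 replicates 1 to 4 are above the mean for all 8 genes, and uninjured replicate 1 is above it for 7.

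Anterior blastema against uninjured limb was the comparison whose 2 groups hold no library of the contrast that chose the genes. The SE and p of this comparison still draw on a spread estimated over all 17 libraries. They are therefore not independent of the libraries of that contrast. MFAP3L averaged 1.94 ± 1.27 CPM (SD, n = 5) in anterior blastemas and 7.24 ± 2.52 CPM (SD, n = 3) in uninjured limb, and its log2 fold change was −1.90 ± 0.43 (SE). LONRF1 averaged 8.09 ± 1.28 CPM (SD, n = 5) in anterior blastemas and 22.97 ± 0.968 CPM (SD, n = 3) in uninjured limb, with a log2 fold change of −1.51 ± 0.34 (SE). Their adjusted p in edgeR's quasi-likelihood test was 0.0567 for MFAP3L and 0.0554 for LONRF1, so neither passed. For AIFM3 the log2 fold change was −0.99 ± 0.45 (SE), at an adjusted p of 0.219 in edgeR. These were the 3 of the 8 genes with no overlap between the groups, lower in the blastemas, against 4.9% of all genes. They had been set apart from the other members after these values were seen.

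None of the 8 genes passed between anterior blastema and uninjured limb in edgeR over all genes (0 of 8, against 0.206% of all genes). At an unadjusted p under 0.05 there were 3 of 8, against 21.5% of all genes, and DESeq2 called 2, MFAP3L and LONRF1, where it called 754 higher and 985 lower of all 19398 genes. A block for the replicate number over all 17 libraries also gave 0 of 8 in edgeR. The codes in the library names are shared only by anterior and uninjured replicates 1 to 3. A pairing by those codes alone was not tested. The median log2 fold change of the 8 was −0.89, beside −0.016 over all genes. Without both libraries that stood apart the median was 0.16, beside 0.015 over all genes, and SLC16A14, CA5A, DHRS12 and WDR76 turned to higher in anterior blastemas, with log2 fold changes of 0.081 ± 0.50 (SE), 0.37 ± 0.31 (SE), 0.36 ± 0.31 (SE) and 0.25 ± 0.31 (SE). MFAP3L and LONRF1 were then lower in anterior blastemas with an adjusted p of 0.0266 and 0.00334 in edgeR, at log2 fold changes of −1.71 ± 0.50 (SE) and −1.49 ± 0.26 (SE). That setting keeps only 2 uninjured libraries, and 10.7% of all genes passed as lower in it. MFAP3L was at 4.35 CPM in uninjured replicate 2, just above the 4.10 CPM of anterior replicate 3. AIFM3, with −1.22 ± 0.48 (SE), did not pass.

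The remaining comparisons share libraries with the contrast that chose the genes, so their values stand side by side as a description. Against anterior blastemas, U0126-treated posterior blastemas had log2 fold changes between 1.58 for MFAP3L and 2.48 for DHRS12. DHRS12, WDR76, LONRF1 and AIFM3 (4 of 8) passed in edgeR, against 0.562% of all genes. Without both libraries that stood apart every gene but MFAP3L passed (7 of 8, against 2.54% of all genes). The count was 1 without anterior replicate 1, 2, 4 or 5 or U0126 replicate 1, 2 or 3, where 15 to 32 of all genes passed as higher. It was 7 without U0126 replicate 4 or 5, where 274 or 234 of all genes did.

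Against uninjured limb, the counts for treated blastemas depended on which libraries were kept. With all of them, edgeR called 0 of the 8 genes and 0% of all genes, 5 of 8 had an unadjusted p under 0.05 against 9.73% of all genes, and DESeq2 called 0. The log2 fold changes were 1.05 ± 0.65 (SE) for SLC16A14, 0.81 ± 0.48 (SE) for CA5A and 1.83 ± 0.61 (SE) for DHRS12. Without both libraries that stood apart they were 2.55 ± 0.59 (SE), 2.14 ± 0.35 (SE) and 3.11 ± 0.37 (SE), and 6 of 8 genes passed as higher, against 12.4% of all genes. Leaving out uninjured replicate 1 alone gave 4 of 8, with 1162 of 19825 genes in all as higher. For MFAP3L the log2 fold change was −0.32 ± 0.43 (SE) with all libraries and −0.15 ± 0.54 (SE) without those 2. LONRF1 had 0.83 ± 0.35 (SE) with all libraries and 1.07 ± 0.30 (SE) without them, and AIFM3 had 1.03 ± 0.47 (SE) and 0.96 ± 0.53 (SE).

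Posterior blastemas without U0126 had lower mean levels than uninjured limb for all 8 genes, and MFAP3L passed in edgeR with a log2 fold change of −2.73 ± 0.47 (SE) (1 of 8, against 1.24% of all genes as lower). That call was lost without posterior replicate 1, posterior replicate 2, uninjured replicate 2 or uninjured replicate 3, settings in which 0 to 3 of all genes passed as lower. Without both libraries that stood apart LONRF1 passed too, at −1.06 ± 0.28 (SE) (2 of 8, against 6.36% of all genes as lower), while LIPG, DHRS12 and WDR76 turned to slightly higher in posterior blastemas. Between posterior and anterior blastemas edgeR called 0 of the 8, and 0.00516% of all genes; 0 of the 8 had an unadjusted p under 0.05, against 9.56% of all genes, and DESeq2 called 0. The log2 fold changes of posterior over anterior blastemas lay between −0.83 ± 0.42 (SE) for MFAP3L and 0.57 ± 0.42 (SE) for AIFM3, and those of DHRS12 and WDR76 were −0.079 ± 0.52 (SE) and −0.074 ± 0.49 (SE).

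**Figure D3:**
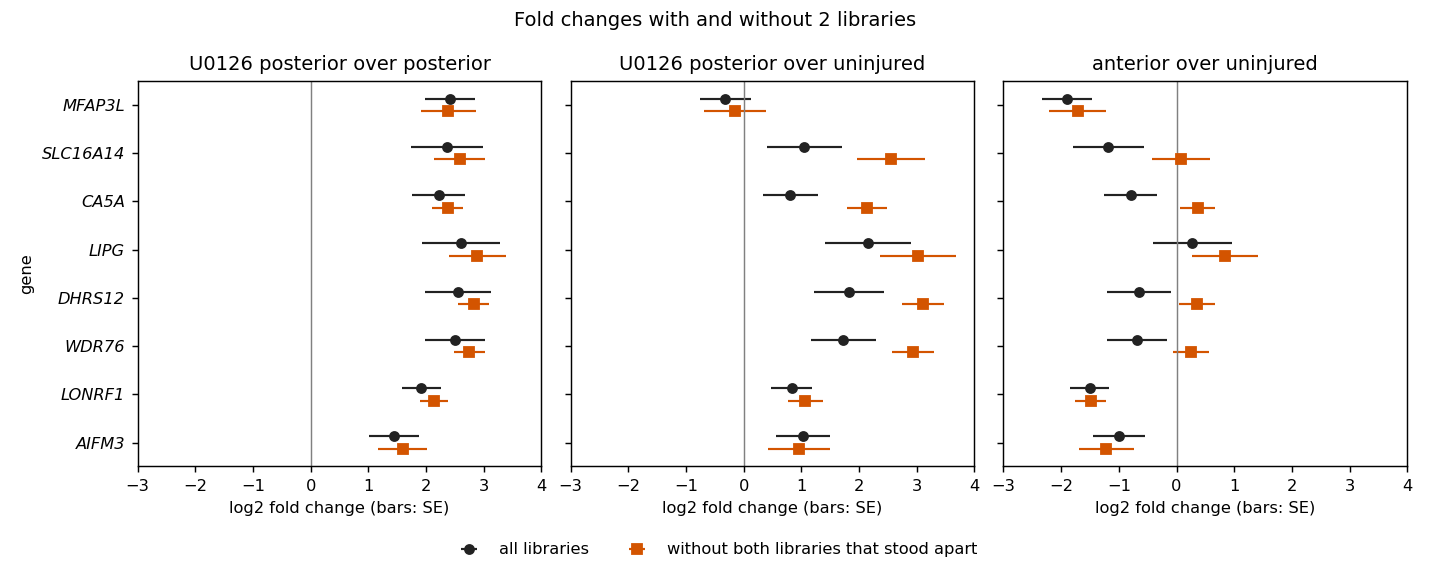
Log2 fold change of each gene in 3 comparisons, with all libraries (black circles) and without the libraries labelled uninjured replicate 1 and U0126 replicate 5 (orange squares). Bars are the SE implied by the F test. Over posterior blastemas all values exceed 1 either way, while over uninjured limb SLC16A14, CA5A, DHRS12 and WDR76 move by more than 1 when the libraries are left out.

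By the order of group means over all libraries, 6 genes were highest with U0126 and second in uninjured limb. For SLC16A14, CA5A, DHRS12 and WDR76 the second place rested on uninjured replicate 1: their anterior means of 4.06, 237, 9.90 and 6.19 CPM were above the uninjured means without that library, 3.84, 183, 7.70 and 5.22 CPM. LONRF1 and AIFM3 kept that order. LIPG was highest with U0126 and second in anterior blastemas (23.3 ± 9.97 CPM (SD, n = 5), against 19.3 ± 10.9 CPM (SD, n = 3) in uninjured limb), a pair that lay within 1 SD of each other. MFAP3L was highest in uninjured limb, within 1 SD of its level with U0126. The genes also differed in which treated library led. MFAP3L, CA5A, DHRS12, WDR76 and LONRF1 were highest in U0126 replicate 3, and SLC16A14, LIPG and AIFM3 in replicate 1. Among replicates 1 to 4 the highest level was 1.75 times the lowest for CA5A and 4.47 times for LIPG. Within posterior blastemas the same ratio ran from 1.37 for DHRS12 to 3.06 for LIPG.

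Likeness between patterns was measured as the root mean square difference of standardised log2 CPM over the 17 libraries, in SDs, where libraries, depth and scaling are shared by all genes. DHRS12 and WDR76 were the closest pair of the 8, at 0.255. SLC16A14 and CA5A followed at 0.392. MFAP3L and LIPG were the least alike, at 1.07, and the gene nearest to MFAP3L among the other 7 was LONRF1, at 0.707.

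Among the 12368 other tested genes with a symbol, SDHA, a subunit of succinate dehydrogenase in the respiratory chain, was nearest to the mean pattern of the 8, at 0.192. PIR, ABHD4, PRXL2B and the porphyrin transporter gene ABCB6 came next, at 0.340 to 0.346. Their log2 fold changes of treated over untreated posterior blastemas were 1.13 for SDHA, 2.03 for PIR, 1.14 for ABHD4, 2.03 for PRXL2B and 1.64 for ABCB6. Nothing is read from these signs, because the search was for likeness to genes chosen as higher with U0126 in the same libraries. Single genes had nearer neighbours in pattern. MTHFSD was at 0.160 from DHRS12, the pentose phosphate enzyme gene PGD at 0.221 from CA5A, ABCB6 at 0.232 from LONRF1 and PRXL2B at 0.246 from WDR76. For SLC16A14, the calcium entry regulator gene SARAF was nearest, at 0.338, and for MFAP3L the cation channel gene TRPV4, at 0.404. For AIFM3 it was PRR5, at 0.504, the least close match of the 7 genes described here.

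Genes of the families and pathways around the 8 were counted in the same comparison of U0126-treated over untreated posterior blastemas. Over all genes tested the median log2 fold change was −0.0022, and 8.12% passed in edgeR, 802 higher and 774 lower (440 and 736 with library totals in place of TMM scaling). Among 15 tested genes of a list put together around ERK feedback, 2 fell, PHLDA1 (−1.65 ± 0.36 (SE)) and EPHA4 (−2.13 ± 0.46 (SE)). DESeq2 called 7 of the 15 as lower, and the median over the list was −0.81. Of the 17 genes listed, DUSP6 and ETV5 were not among the gene IDs by symbol. The list was chosen with earlier results of these data known, and not all its genes are established readouts of ERK. Where 0 genes of a list are said to have moved one way in edgeR, the count was also 0 at an unadjusted p under 0.05 and in DESeq2 unless other counts are given. Of 11 tested SLC16 carriers and their chaperones, 1 rose and 1 fell in edgeR. Their log2 fold changes were above 0 for 9 and below 0 for 2, with a median of 0.51. At an unadjusted p under 0.05, 7 were higher and 1 lower, and DESeq2 called 3 higher and 1 lower. SLC16A12 rose (1.15 ± 0.18 (SE)) and SLC16A10, an aromatic amino acid carrier, fell (−0.89 ± 0.23 (SE)). Of carbonic anhydrases other than CA5A, 4 were tested, all with log2 fold changes below 0, and 0 passed in edgeR, at an unadjusted p under 0.05 or in DESeq2. CA7 was at 10.3 ± 14.6 CPM (SD, n = 5) in treated and 13.7 ± 9.91 CPM (SD, n = 4) in untreated posterior blastemas. Its log2 fold change was −0.42 ± 0.94 (SE), an error wider than the difference.

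Enzymes that fix bicarbonate or work beside those that do had 8 of 8 log2 fold changes above 0, with a median of 0.43, and 3 passed. ACACA, the carboxylase of fatty acid synthesis, rose (1.22 ± 0.35 (SE)), as did both subunits of propionyl-CoA carboxylase, PCCA (0.45 ± 0.12 (SE)) and PCCB (0.39 ± 0.087 (SE)). Fatty acid oxidation held 4 genes that rose among 13 and 0 that fell. These were the lipid-sensing receptor PPARA (1.14 ± 0.21 (SE)), the electron transfer proteins ETFA (0.51 ± 0.10 (SE)) and ETFDH (0.65 ± 0.15 (SE)), and the acylcarnitine carrier SLC25A20 (0.49 ± 0.11 (SE)). Among pyruvate and lactate genes 1 of 9 rose, MPC2 of the mitochondrial pyruvate carrier (0.56 ± 0.16 (SE)).

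Of genes around LIPG, the triglyceride lipase LPL was at 37.8 ± 15.3 CPM (SD, n = 5) in treated and 39.1 ± 8.91 CPM (SD, n = 4) in untreated posterior blastemas. LIPI had a log2 fold change of 0.71 ± 0.23 (SE); 0 of these 2 lipases passed in edgeR, 1 had an unadjusted p under 0.05, and DESeq2 called 1, LIPI. Of 11 lipoprotein genes 1 fell, the phospholipid transfer protein PLTP (−0.97 ± 0.19 (SE)), and 0 rose in edgeR, where 2 had an unadjusted p under 0.05 and a positive log2 fold change, and DESeq2 called 2 as higher. The protease PCSK6 had a log2 fold change of 0.999 ± 0.33 (SE). Among the DHRS reductases 0 of 7 passed in edgeR, 1 had an unadjusted p under 0.05 and DESeq2 called 0, with a median of 0.11 and DHRS7 at 0.26 ± 0.10 (SE).

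The list of genes around the CUL4-DDB1 ligase, which human WDR76 binds, held 1 riser among 22, the damage sensor DDB2 (0.90 ± 0.22 (SE)). DNA replication genes had 16 of 17 log2 fold changes above 0, with a median of 0.20. Of these 17 genes 0 passed in edgeR, at an unadjusted p under 0.05 or in DESeq2. The helicase subunit MCM2 was at 0.38 ± 0.20 (SE). LONRF2, the close relative of LONRF1, rose (0.995 ± 0.25 (SE)) as 1 of 4 LON domain genes. Of 9 genes around AIFM3, 3 rose. AIFM2, which in mammals guards membranes against lipid peroxidation, was at 46.4 ± 18.4 CPM (SD, n = 5) in treated and 15.9 ± 0.808 CPM (SD, n = 4) in untreated posterior blastemas (1.55 ± 0.29 (SE)). AIFM1, the apoptosis-inducing factor itself, and DIABLO rose less (0.33 ± 0.096 (SE) and 0.37 ± 0.10 (SE)). MFAP3, the relative of MFAP3L, had 0.44 ± 0.15 (SE) and did not pass.

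**Figure D4:**
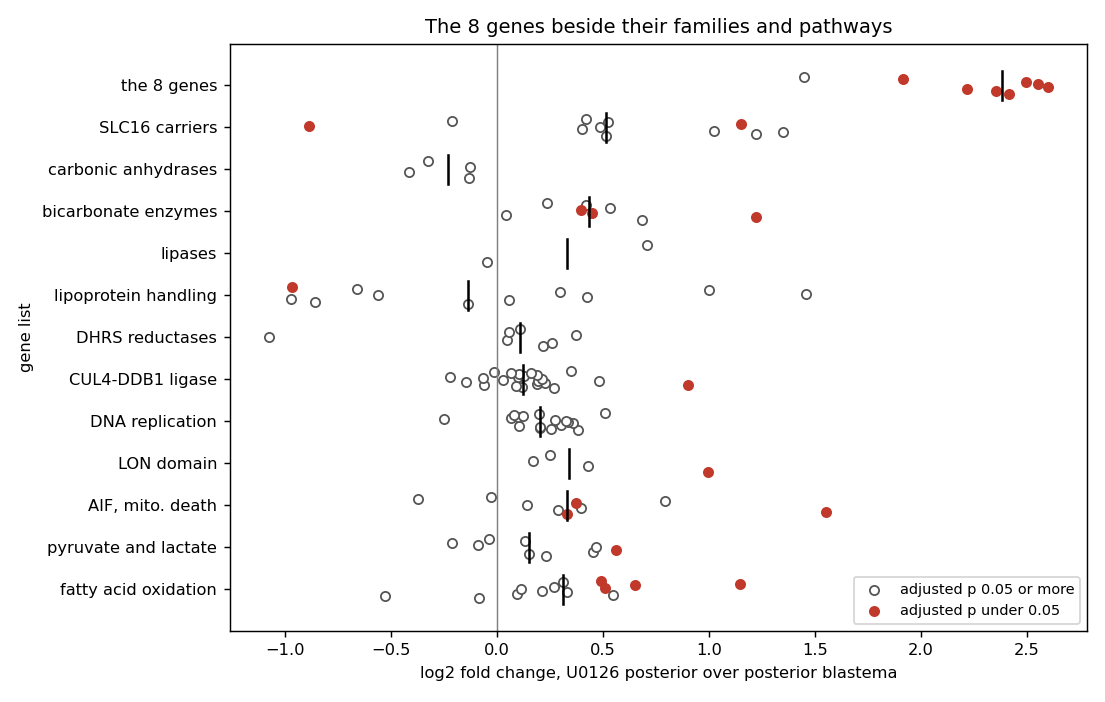
Log2 fold change of U0126-treated over untreated posterior blastemas for the 8 genes and for the genes of 12 lists around them. Points are genes, filled where the adjusted p in edgeR was under 0.05, and black lines are medians. The 8 genes were chosen on this axis, so their place on it is a description.

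Without both libraries that stood apart, 1404 genes passed as higher and 1171 as lower of all 19779 over posterior blastemas. Of 11 SLC16 carriers and chaperones, 3 were then higher and 1 lower. Those higher numbered 5 of 8 bicarbonate enzymes, 6 of 13 fatty acid oxidation genes, 2 of 9 pyruvate and lactate genes, 2 of 4 LON domain genes and 5 of 9 genes around AIFM3, and MFAP3 passed as well. The counts of carbonic anhydrases, lipases, DHRS reductases, lipoprotein, CUL4-DDB1 and DNA replication genes were the same as with all libraries.

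Position was also examined, by the protein-coding genes next to each of the 8 in RefSeq's assembly UKY_AmexF1_1, used for order only because the build of the counts is not given in the sources used here. Of 14 such neighbours that were tested, 1 passed with U0126 in edgeR, near the 8.12% of all genes. It was FRMD5, beside WDR76, at 0.91 on the log2 scale. The others ranged from −0.98 for GRIA1 beside LONRF1 to 1.31 for the amino acid transporter gene SLC7A5 beside CA5A. MFAP3, the relative of MFAP3L, is the other neighbour of LONRF1. Reads were counted without regard to strand, so strand did not serve to assign reads where genes overlap. The share of reads on the second strand was 62.8% for AIFM3 to 68.4% for WDR76, against a median of 67.0% over all tested genes.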

How the data were processed

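Per the submitters' processing notes, the tools were Trimmomatic 0.39, a read trimmer, and STAR 2.7.3a, an aligner. The genome build is not given in the sources used here. Each deposited file lists counts of reads per gene, as the authors' aligner wrote them, in 3 columns (unstranded and by either strand). It also gives totals of reads assigned to no gene (14.2% to 16.4%), which were left out. The unstranded counts were used, since the second strand held only 1.90 to 2.16 times the reads of the first. Groups came from the titles. The 8 genes, the gene lists and the settings were chosen with earlier results of these data known. No 2 libraries of a group agreed within counting noise (chi-square over its degrees of freedom, 64.6 to 630.1).

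Genes were filtered with filterByExpr (19398 of 122775 kept), scaled by TMM and modelled over all 4 groups at once by edgeR 4.0.16 (R 4.3.3), using its robust quasi-likelihood F test and Benjamini-Hochberg adjusted p-values over all genes, called under 0.05. Each SE comes from the fold change and its F, so it carries nothing beyond the p. CPM were computed from the deposited counts. No overlap means that every library of 1 group lies above every library of the other. Named genes were the 8, up to 3 per list with the smallest adjusted p under U0126, and the nearest patterns in log2 CPM (prior count 2); ETFDH and the extremes among neighbours are named after their values were seen. Some genes that this rule names are not reported here. Of 235 list symbols 193 were in the files. Symbols matched RefSeq's gene table for 67157 of 67181 IDs outside tRNA. Simulated counts, in which no library was made to stand apart, served to check that the test gives planted changes the right direction. That check sets no limit on missed or false calls in these data. The alternatives tried were scaling by RLE or by library totals, leaving the filter out or asking for a CPM of 1 in at least 3 libraries, second-strand counts, a fit of the 2 groups in question alone, a block for replicate number, DESeq2 1.42.0, leaving out each library and leaving out both libraries that stood apart. Figures used matplotlib 3.10.9.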

Additional observations from a re-analysis of the deposited data

Results flagged for a closer look

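In the library labelled U0126 replicate 1, AIFM3 reached 15.6 CPM, while U0126 replicates 2 to 5 had 3.63 to 5.38 CPM. The gap to the nearest of them took up 0.853 of the whole range of the group, above the limit of 0.71 for 5 libraries. Chance alone exceeds that limit in about 1 of 20 groups, and 24 groups of 4 or 5 libraries were examined. Without that library the log2 fold change of AIFM3 over posterior blastemas was 0.87.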

How the results depend on the processing

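With U0126 over untreated posterior blastemas, each gene kept a positive log2 fold change in every alternative. Outside the settings that leave out 1 library 6 to 8 of 8 passed (2 to 8 with 1 left out). Of all genes, 437 (replicate block) to 1483 (DESeq2) passed as higher in those settings, and 63 to 1075 with 1 library left out. Nothing is read from these signs and counts, because this contrast chose the genes. Over anterior blastemas the count of 4 became 1 with only the 2 groups compared, 2 with the replicate block, 8 with DESeq2 and 7 without both libraries that stood apart, and ran from 1 to 7 with 1 library left out. Over uninjured limb the count of 0 became 6 without both libraries and ran from 0 to 4 with 1 left out. For posterior blastema against uninjured limb the count of 1 became 0 with only the 2 groups compared, 3 with DESeq2 and 2 without both libraries, and 0 to 1 with 1 left out. For anterior blastema against uninjured limb the count of 0 became 1 with only the 2 groups compared (LONRF1), 2 with DESeq2 and 2 without both libraries, and ran from 0 to 2 with 1 left out (1, MFAP3L, without anterior replicate 3). Between posterior and anterior blastemas it stayed at 0 in every alternative. Calls over all genes moved too: DESeq2 called 626 as higher over anterior blastemas and 972 as lower in posterior blastema against uninjured limb, where edgeR called 109 and 240. Over anterior blastemas 34 of 17967 genes passed as higher with only the 2 groups compared, and 64 of 19398 with the replicate block. In posterior blastema against uninjured limb 0 of 18453 genes passed with only the 2 groups compared. For anterior blastema against uninjured limb that setting gave 4 higher and 4 lower of 18532.

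Without both libraries, LIPG, DHRS12 and WDR76 turned to 0.14, 0.29 and 0.18 in posterior over uninjured, and SLC16A14, CA5A, DHRS12 and WDR76 to 0.081, 0.37, 0.36 and 0.25 in anterior over uninjured. With 1 library left out, the first 3 ran over −0.92 to 0.13, −1.07 to 0.28 and −1.08 to 0.17, and the other 4 over −1.55 to 0.084, −1.18 to 0.37, −1.001 to 0.36 and −1.01 to 0.25, each above 0 without uninjured replicate 1 alone. In posterior over anterior, SLC16A14 ran over −0.34 to 0.092, above 0 without anterior replicate 1 or posterior replicate 3, and WDR76 over −0.17 to 0.065, above 0 without posterior replicate 4. The cause was not tested.

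No pair of groups had all correlations between same-numbered libraries above 0.1 (range −0.243 to 0.349). Among the libraries labelled replicate 1, however, all were positive, from 0.156 to 0.349. The highest was that of uninjured replicate 1 with U0126 replicate 1. At the other replicate numbers they ran from −0.243 to 0.221. The cause of this difference was not tested. With so few libraries per group these correlations cannot decide whether same-numbered libraries share an animal. The block was therefore kept as an alternative only. Library totals in place of TMM moved the median of all genes to 0.12 in anterior over uninjured (44 higher and 30 lower calls, against 13 and 27) and to 0.14 in posterior over uninjured (173 and 100, against 168 and 240), and changed no call or direction of the 8 genes. For MFAP3L, at 27 to 61 reads in posterior libraries, counting error adds to the spread.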
